A study of Mus musculus with 24 samples.

Results

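Interferon-stimulated genes are the set that a cell switches on when interferon binds its receptors, and 42 of them are described here across 2 mouse hindlimb muscles, in control and diabetic animals. They were taken by symbol from a deposited expression table of 24016 gene symbols, with the transcript of highest mean level kept for each symbol, and all 42 were found. The members were chosen by name, with earlier results of these data known. By role they comprise 4 transcription factors of the response, 7 genes of the Isg15 system and of ubiquitin or ADP-ribose transfer, 3 IFIT proteins, 5 of the OAS family, 5 nucleic acid sensors and kinases, 2 Mx GTPases, 4 guanylate-binding or immunity-related GTPases, and 12 membrane restriction factors and other effectors.

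Type I interferon acts through the receptor pair Ifnar1 and Ifnar2 and the kinases Jak1 and Tyk2, which lead to a complex holding Stat2 and Irf9 that binds the interferon-stimulated response element (ISRE). Interferon gamma acts through Ifngr1 and Ifngr2, and its target genes carry the gamma-activated site (GAS). In injured muscle, macrophages and other cells that clear dying fibres are known sources and targets of interferon.

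All animals had the C57BL/6 strain background per the labels and underwent ligation of the femoral artery of 1 hindlimb, after which muscle was collected on day 7. The 4 groups of 6 libraries were the normoxic adductor of control mice, the normoxic adductor of type 2 diabetic mice, the ischemic gastrocnemius of control mice and the ischemic gastrocnemius of type 2 diabetic mice. The labels give neither how diabetes was produced nor the animals' ages, nor whether muscles with the same number came from 1 mouse, so p-values here reflect the spread among the sampled libraries, which may in part be technical. Poly(A) RNA was sequenced, and levels are RPKM (reads per kilobase of exon and M library reads), which can be compared between genes.

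The libraries formed a pair of sets unnamed in the labels. In 14 libraries (numbers 1 to 3 of the control and 1 to 4 of the diabetic groups, here the first set) the glycolytic gene Gapdh stood at 677 to 1757 RPKM, and in the other 10 (numbers 4 to 6 and 5 to 6, the second set) at 0.365 to 13.7 RPKM. Depth was 12 to 15.6 M reads in the first set and 7.13 to 11.8 M in the second. More than 1 sequencing instrument is named in the labels; a link between instrument and set was not tested. Each set holds libraries of all 4 groups, so every comparison is also given within the sets. Skeletal muscle fibre markers summed to 14245 to 88863 RPKM over the 24 libraries, so the defining markers of the labelled tissue were present.

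Promoters of 32 of the 42 members were in the RefSeq promoter table (build GRCm38.p6, 250 bases before to 50 after each start). The ISRE core, searched as GAAANNGAA on both strands, was found in 19 of these 32 (59.4%) against 9.76% of the 27025 genes in the table. The GAS core, TTCNNNGAA on both strands, was found in 8 of 32 (25%) against 9.55%. Runs of the ISRE core can overlap each other, as in Isg15 and Bst2. The 5 promoters below are examples from members that carry the ISRE core. The 13 without it were Irf1, Irf7, Irf9, Herc6, Dtx3l, Ifit2, Oasl1, Oasl2, Cmpk2, Ifi35, Xaf1, Sp100 and Lgals3bp. The 10 members not in the promoter table were Usp18, Parp9, Parp14, Oas2, Dhx58, Zbp1, Mx1, Mx2, Ifi27l2a and Rtp4. Capitals mark the ISRE core on either strand in the 250 bases before the start, and each sequence is written along the gene's own strand.
Isg15, chr4:156200819-156201068, minus strand, 3 overlapping cores between 78 and 66 bases before the start:
Isg15: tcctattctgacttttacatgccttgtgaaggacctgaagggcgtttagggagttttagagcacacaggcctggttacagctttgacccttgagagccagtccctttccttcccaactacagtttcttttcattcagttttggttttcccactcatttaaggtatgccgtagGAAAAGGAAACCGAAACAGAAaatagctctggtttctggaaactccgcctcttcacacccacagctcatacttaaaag
Ifit3, chr19:34583279-34583528, plus strand, 3 cores between 155 and 102 bases before the start:
Ifit3: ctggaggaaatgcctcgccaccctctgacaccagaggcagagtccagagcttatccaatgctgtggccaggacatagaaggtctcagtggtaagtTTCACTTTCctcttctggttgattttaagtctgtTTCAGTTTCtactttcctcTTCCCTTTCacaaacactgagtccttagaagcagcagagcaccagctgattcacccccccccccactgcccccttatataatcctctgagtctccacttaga
Stat2, chr10:128270248-128270497, plus strand, 1 core 221 bases before the start:
Stat2: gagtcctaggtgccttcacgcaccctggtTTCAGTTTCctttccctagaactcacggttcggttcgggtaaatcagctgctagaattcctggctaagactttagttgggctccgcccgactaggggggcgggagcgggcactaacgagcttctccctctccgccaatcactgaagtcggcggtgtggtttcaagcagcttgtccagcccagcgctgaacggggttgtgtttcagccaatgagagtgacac
Rsad2, chr12:26456453-26456702, minus strand, 1 core 119 bases before the start:
Rsad2: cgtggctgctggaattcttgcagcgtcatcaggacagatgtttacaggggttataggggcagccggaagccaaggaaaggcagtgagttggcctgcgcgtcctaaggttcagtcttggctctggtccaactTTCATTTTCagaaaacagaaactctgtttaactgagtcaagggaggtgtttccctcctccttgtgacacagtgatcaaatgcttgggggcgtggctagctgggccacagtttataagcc
Bst2, chr8:71537473-71537722, minus strand, 2 overlapping cores at 130 and 124 bases before the start:
Bst2: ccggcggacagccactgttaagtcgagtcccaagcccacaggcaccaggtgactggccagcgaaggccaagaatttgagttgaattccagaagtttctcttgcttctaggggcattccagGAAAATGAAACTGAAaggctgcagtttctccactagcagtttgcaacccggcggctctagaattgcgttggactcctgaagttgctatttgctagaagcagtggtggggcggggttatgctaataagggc
A match is a run of letters and was not tested as a binding site. In control mice the 19 holders of the ISRE core had a median difference between the muscles of 1.79 on the log2 scale and the 13 tested members without it 1.58, and in diabetic mice 1.59 and 1.56.

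In the control adductor the highest were Ifitm3, a membrane protein that blocks virus entry, at 55.2 ± 18.04 RPKM (SD, n = 6), then Ifi27l2a at 25.6, Bst2 at 11.6 and Lgals3bp at 10.8. The same 4 genes led in the control gastrocnemius, with means of 254, 74.1, 70.8 and 62.4 RPKM. Members with a mean above 10 RPKM numbered 4 in the control and 4 in the diabetic adductor, against 11 and 12 in the gastrocnemius. Members below 1 RPKM numbered 12 and 11 in the adductor and 1 in each gastrocnemius group. Genes with at least 1 RPKM in at least 6 libraries were tested, which kept 41 of the 42 members and 12382 genes in all. The member below the limit was Mx2.

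**Figure D1:**
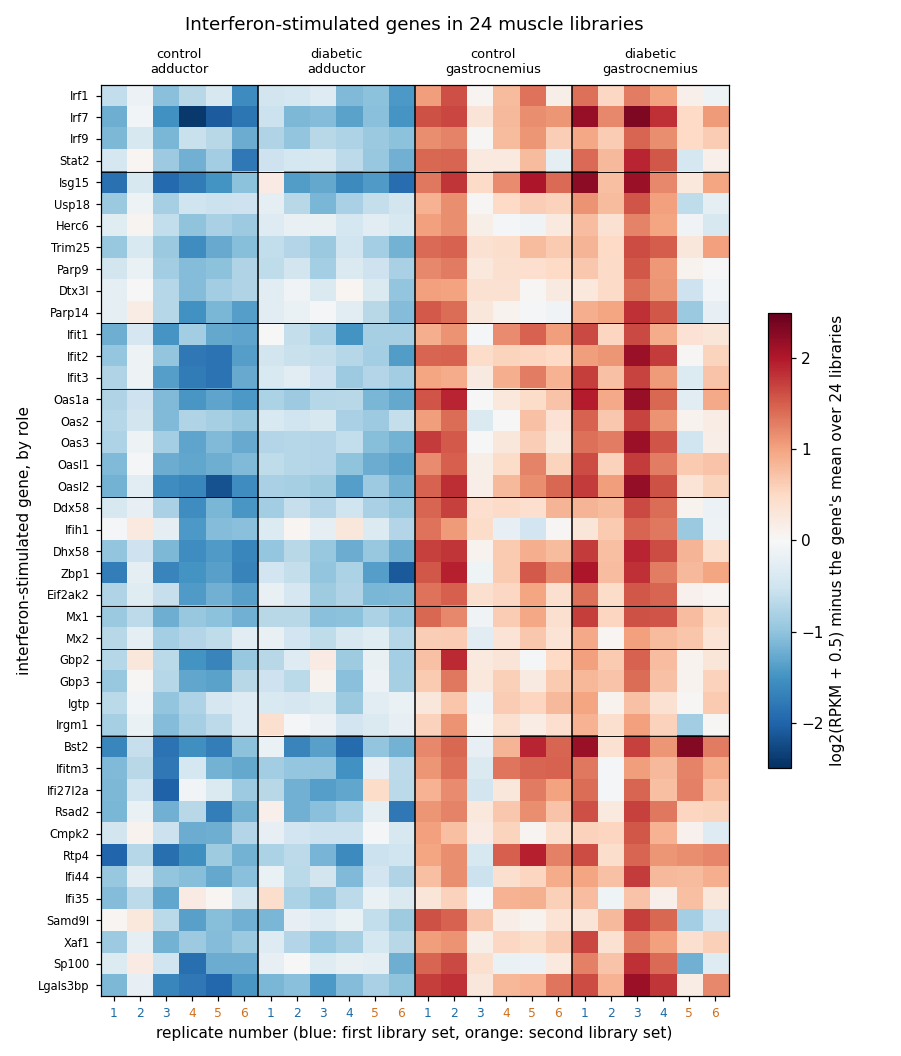
Level of each of the 42 members in each of the 24 libraries, as log2(RPKM + 0.5) minus the gene's own mean over all libraries (colour scale in log2 units). Columns are libraries by group and replicate number, with first-set numbers in blue and second-set numbers in orange, and lines separate the roles. Adductor libraries are mostly blue and gastrocnemius libraries mostly red, with control adductor 2 and control gastrocnemius 3 the palest of the first-set libraries of their groups.

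The largest difference lay between the muscles: in control mice 41 of 41 tested members were higher in the ischemic gastrocnemius than in the normoxic adductor, and in diabetic mice 38 of 41. The test was limma on log2(RPKM + 0.5) over all 12382 genes, with Benjamini-Hochberg adjustment and calls at 0.05. A fold is on that scale and understates the change of low genes. Passing the filter took any 6 of the 24 libraries, so a gene could pass on its gastrocnemius values alone. Mx1, Oas1a, Oas3 and Ifi44 did so, with no adductor library above 0.804 RPKM. Without the filter the medians over 42 members were 1.61 in control and 1.59 in diabetic mice, beside 0.13 and 0.12 over all genes. That background holds all 24016 symbols, many without reads, so it is not comparable with the median of the 12382 genes tested. Of all genes tested 54.4% were called higher in control and 48.1% in diabetic mice, with 1077 and 1093 genes called lower. The median difference over members was 1.64 in control and 1.59 in diabetic mice, beside 0.66 and 0.55 over all genes. Member folds ran from 1.96 to 6.88 in control mice, 12 of them over 4-fold, and from 1.39 to 6.50 in diabetic mice, 10 of them over 4-fold. Every gastrocnemius library stood above every adductor library for 29 of 42 members in control mice and 28 of 42 in diabetic mice, against 33.3% and 29% of all genes. The muscles differ in kind and in ischemia at once, so these cannot be told apart, nor, in bulk tissue, can more cells of a type and more RNA per cell.

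Deposited RPKM shares 1 total among all genes, so the call counts depend on scaling. After median-of-ratios scaling the median muscle difference over all genes went from 0.66 to -0.02 in control and from 0.55 to -0.04 in diabetic mice. Genes called higher then made up 28.3% and 27.3% of all, with 3285 and 3284 called lower. On that scale 32 of 41 members were called higher in control mice (median 1.04) and 30 of 41 in diabetic mice (median 1.03). Relative to the median of all genes, the members' median was 0.98 as deposited and 1.06 after scaling in control mice, and 1.04 and 1.07 in diabetic mice. Every member kept a positive difference after this scaling except Irgm1 in diabetic mice (-0.18), and after quantile normalization all but Herc6, Ifih1 and Irgm1 did, again in diabetic mice.

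The 4 transcription factors of the response were all higher in the gastrocnemius in both groups of mice. Irf7, the factor that amplifies interferon production (mm9, chr7:148449082-148452323), ran from 1.04 to 7.26 RPKM (median 2.10) in control adductor and from 9.71 to 25.6 (17.4) in control gastrocnemius. In diabetic mice Irf7 ran from 2.44 to 5.13 RPKM (3.29) in adductor and from 11.02 to 40.6 (23.5) in gastrocnemius. The muscles did not overlap for Irf7 in either group of mice, and control adductor 2 was its highest adductor library. Its difference was 2.63 ± 0.34 in control (SE, limma adjusted p = 7.8e-07) and 2.62 ± 0.34 in diabetic mice (adjusted p = 1.0e-06). Irf9, the DNA-binding part of the ISRE complex, had medians of 2.25 and 9.33 RPKM in control adductor and gastrocnemius and of 2.33 and 8.38 in diabetic mice, with no overlap. Among members Irf9 had the smallest p in both groups of mice, with differences of 1.68 ± 0.21 (limma adjusted p = 3.9e-07) and 1.75 ± 0.21 (2.9e-07). Irf1, a factor induced by interferon gamma above all, ran from 1.67 to 5.33 RPKM (3.62) in control adductor and from 6.31 to 19.3 (11.7) in control gastrocnemius. Diabetic values of Irf1 were 1.90 to 4.70 RPKM (3.44) in adductor and 5.45 to 16.3 (10.6) in gastrocnemius. Irf1 did not overlap between the muscles, with differences of 1.58 ± 0.31 (limma adjusted p = 0.00011) and 1.49 ± 0.31 (0.00026).

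Stat2, which carries the activating domain of that complex, was the 1 factor of the 4 whose muscles overlapped. It ran from 0.315 to 2.40 RPKM (1.02) in control adductor and from 1.88 to 7.22 (3.59) in control gastrocnemius. Diabetic Stat2 ran from 0.713 to 1.62 RPKM (1.38) in adductor and from 1.57 to 10.0 (5.70) in gastrocnemius. Control gastrocnemius 6 (1.88 RPKM) stood below control adductor 2, and diabetic gastrocnemius 5 (1.57 RPKM) below diabetic adductor 3 (1.62 RPKM). The Stat2 differences were 1.51 ± 0.37 (limma adjusted p = 0.0010) and 1.59 ± 0.37 (0.00075).

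**Figure D2:**
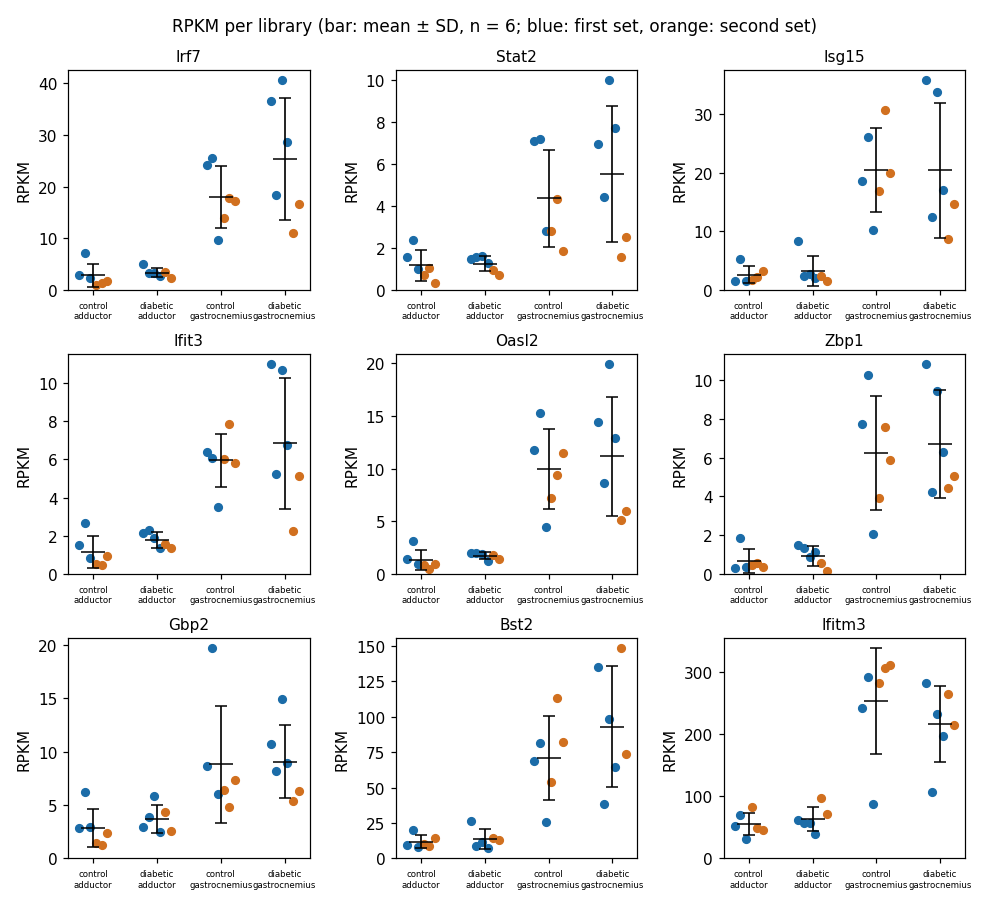
RPKM of 9 members in each library, by group, on linear axes from 0. Points are libraries (first set blue, second set orange) and bars are the mean ± SD of 6 libraries. Within each group of mice Irf7, Isg15, Oasl2, Zbp1, Bst2 and Ifitm3 separate the muscles without overlap. Stat2 and Gbp2 overlap in both groups of mice and Ifit3 in diabetic mice.

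All 7 genes of the Isg15 system and of ubiquitin or ADP-ribose transfer were higher in the gastrocnemius, with medians of 1.33 in control and 1.24 in diabetic mice. Isg15, the ubiquitin-like protein joined to other proteins (mm9, chr4:155573533-155574927), ran from 1.496 to 5.28 RPKM (2.00) in control adductor and from 10.2 to 30.6 (19.3) in control gastrocnemius. Diabetic Isg15 ran from 1.54 to 8.36 RPKM (2.40) in adductor and from 8.63 to 35.8 (15.8) in gastrocnemius. In diabetic mice the lowest gastrocnemius library of Isg15 stood just above the highest adductor library, number 1. On the log2(RPKM + 0.5) scale, which shrinks low genes, Isg15 had the largest member difference in control mice, 2.78 ± 0.37 (limma adjusted p = 1.0e-06). Its difference in diabetic mice was 2.49 ± 0.37 (limma adjusted p = 5.2e-06). The rank depends on that scale: by limma voom on recovered reads the largest member difference was 3.94 in control and 3.63 in diabetic mice. Usp18, which removes Isg15 from proteins and damps Ifnar2 signalling, ran from 0.797 to 1.78 RPKM (1.22) in control adductor and from 2.01 to 5.07 (3.22) in control gastrocnemius. Diabetic Usp18 ran from 0.622 to 1.59 RPKM (1.09) in adductor and from 1.08 to 6.85 (4.15) in gastrocnemius. It overlapped only in diabetic mice, through diabetic gastrocnemius 5 and 6. The Usp18 differences were 1.19 ± 0.29 (limma adjusted p = 0.00099) and 1.26 ± 0.29 (0.00072). Trim25, a ubiquitin ligase that acts on Ddx58, did not overlap between the muscles and differed by 1.88 ± 0.24 (limma adjusted p = 7.3e-07) and 1.76 ± 0.24 (2.2e-06). Herc6, the mouse ligase for Isg15, differed by 1.002 ± 0.27 in control mice (limma adjusted p = 0.0025), the smallest of this group on the log2(RPKM + 0.5) scale. Parp9 and Dtx3l, which act as a pair, lie head to head and overlap on opposite strands (mm9, chr16:35938556-35939113), and reads there could not be told apart.

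The IFIT proteins bind viral RNA and are encoded side by side on chromosome 19 (mm9, 34625184 to 34724499). All 3 were higher in the gastrocnemius, with medians of 2.04 in control and 1.66 in diabetic mice. Ifit3 ran from 0.466 to 2.66 RPKM (0.885) in control adductor and from 3.52 to 7.85 (6.05) in control gastrocnemius. In diabetic mice Ifit3 ran from 1.35 to 2.33 RPKM (1.75) in adductor and from 2.24 to 10.98 (6.00) in gastrocnemius. Its muscles were apart in control mice and overlapped in diabetic mice through diabetic gastrocnemius 5. Ifit3 differed by 2.05 ± 0.30 in control (limma adjusted p = 4.1e-06) and 1.55 ± 0.30 in diabetic mice (0.00014). Of the 31-base words of Ifit3, 61.8% also occur in another gene, most of all Ifit3b, so reads of such copies could not be told apart.

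The OAS enzymes make the 2'-5' oligoadenylates that switch on RNase L, and the OAS-like proteins are their relatives. All 5 were higher in the gastrocnemius, with medians of 1.85 in control and 2.04 in diabetic mice. These medians include Oas1a and Oas3, which passed the filter on their gastrocnemius values alone. Oasl2 ran from 0.475 to 3.12 RPKM (1.01) in control adductor and from 4.49 to 15.3 (10.5) in control gastrocnemius. Diabetic Oasl2 ran from 1.21 to 2.04 RPKM (1.87) in adductor and from 5.09 to 19.9 (10.8) in gastrocnemius. No library of Oasl2 crossed between the muscles, and the differences were 2.55 ± 0.32 (limma adjusted p = 5.0e-07) and 2.25 ± 0.32 (3.0e-06). Oasl1, which restrains Irf7 translation, had adductor medians of 0.249 and 0.431 RPKM and gastrocnemius medians of 2.63 and 2.93, again without overlap. It differed by 1.85 ± 0.27 (limma adjusted p = 3.0e-06) and 2.04 ± 0.27 (1.1e-06). Oas1a had adductor medians of 0.149 and 0.335 RPKM and gastrocnemius medians of 1.76 and 2.96. Of its 31-base words 68.8% also occur in another gene, most of all Oas1g.

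Of the 5 nucleic acid sensors and kinases all were higher in the gastrocnemius of control mice and 4 of diabetic mice. Zbp1, a sensor of left-handed nucleic acid that can set off necroptosis, ran from 0.344 to 1.88 RPKM (0.440) in control adductor and from 2.09 to 10.3 (6.71) in control gastrocnemius. Diabetic Zbp1 ran from 0.149 to 1.499 RPKM (1.02) in adductor and from 4.24 to 10.8 (5.66) in gastrocnemius. No adductor library of Zbp1 reached a gastrocnemius library of the same mice, and the differences were 2.48 ± 0.34 (limma adjusted p = 1.6e-06) and 2.34 ± 0.34 (4.4e-06). Dhx58, a regulator of the RNA sensors Ddx58 and Ifih1, rose from medians of 0.354 and 0.555 RPKM to 3.19 and 4.51, with differences of 2.20 ± 0.28 (limma adjusted p = 7.5e-07) and 2.22 ± 0.28 (8.3e-07). Ifih1, the sensor of long double-stranded RNA, had the smallest member difference in control mice, 0.97 ± 0.38 (limma adjusted p = 0.029). Its value in diabetic mice was 0.66 ± 0.38 (limma adjusted p = 0.14).

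Mx1 and Mx2, dynamin-like antiviral GTPases known to be defective in common laboratory strains such as C57BL/6, were the sparsest members. Mx1 gave 26 and 35 reads in all in the control and diabetic adductor and 357 and 475 in the gastrocnemius. The muscles did not overlap for Mx1, whose differences were 1.75 ± 0.25 (limma adjusted p = 2.4e-06) and 1.98 ± 0.25 (6.4e-07). Mx2 gave 20 and 29 reads in the adductor and 127 and 165 in the gastrocnemius, and its highest library held 1.33 RPKM.

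The guanylate-binding and immunity-related GTPases, which attack the vacuoles of intracellular microbes and are induced mainly by interferon gamma, showed the smallest differences of any role with more than 1 tested member, with medians of 1.28 in control and 1.04 in diabetic mice. Gbp2 ran from 1.25 to 6.24 RPKM (2.63) in control adductor and from 4.81 to 19.7 (6.85) in control gastrocnemius. Diabetic Gbp2 ran from 2.47 to 5.88 RPKM (3.41) in adductor and from 5.36 to 14.9 (8.53) in gastrocnemius. The muscles overlapped for Gbp2 in both groups of mice, and its differences were 1.47 ± 0.32 (limma adjusted p = 0.00041) and 1.18 ± 0.32 (0.0034). Igtp had medians of 4.19 and 9.74 RPKM in control adductor and gastrocnemius and of 4.81 and 9.399 in diabetic mice. Its differences were 1.02 ± 0.20 (limma adjusted p = 9.2e-05) and 0.90 ± 0.20 (0.00041), with an overlap in control mice only. Irgm1, a regulator that keeps the other immunity-related GTPases off the cell's own membranes, ran from 3.99 to 8.04 RPKM (5.22) in control adductor and from 9.28 to 20.3 (12.2) in control gastrocnemius. In diabetic mice it ran from 6.32 to 12.1 RPKM (7.92) in adductor and from 4.71 to 19.1 (12.96) in gastrocnemius. Irgm1 overlapped between the diabetic muscles, where diabetic gastrocnemius 5 was lower than every diabetic adductor library. The Irgm1 difference was 1.11 ± 0.26 in control mice (limma adjusted p = 0.00072) and 0.48 ± 0.26 in diabetic mice (0.12).

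All 12 membrane restriction factors and other effectors were higher in the gastrocnemius of control mice and 11 of diabetic mice. Bst2, or tetherin, which holds budding virions on the cell surface, ran from 7.87 to 19.7 RPKM (9.62) in control adductor and from 25.9 to 113 (75.1) in control gastrocnemius. Diabetic Bst2 ran from 7.44 to 26.4 RPKM (12.1) in adductor and from 38.7 to 148 (85.9) in gastrocnemius. It had the largest member difference in diabetic mice, 2.70 ± 0.35 (limma adjusted p = 1.2e-06), after 2.496 ± 0.35 (2.6e-06) in control mice, with no overlap. Ifitm3 ran from 32.0 to 82.5 RPKM (50.6) in control adductor and from 87.0 to 312 (288) in control gastrocnemius. Diabetic Ifitm3 ran from 39.0 to 97.4 RPKM (59.2) in adductor and from 108 to 282 (224) in gastrocnemius. The lowest gastrocnemius library of Ifitm3 lay just above the highest adductor library in both groups of mice, and the differences were 2.14 ± 0.31 (limma adjusted p = 2.8e-06) and 1.75 ± 0.31 (4.1e-05). Ifi27l2a, a small hydrophobic protein strongly induced by type I interferon, had medians of 26.0 and 81.2 RPKM in control adductor and gastrocnemius and of 21.9 and 86.2 in diabetic mice. It overlapped in both, and differed by 1.53 ± 0.36 (limma adjusted p = 0.00085) and 1.73 ± 0.36 (0.00030).

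Rsad2, or viperin, which makes a chain-terminating nucleotide, ran from 0.713 to 3.08 RPKM (1.31) in control adductor and from 4.33 to 8.99 (7.13) in control gastrocnemius. Diabetic Rsad2 ran from 0.674 to 3.93 RPKM (1.60) in adductor and from 4.26 to 12.7 (7.47) in gastrocnemius. The muscles did not overlap, and the Rsad2 differences were 1.88 ± 0.31 (limma adjusted p = 1.9e-05) and 1.82 ± 0.31 (3.4e-05). Cmpk2, its neighbour on chromosome 12 and the kinase that feeds it, overlapped between the muscles in both groups of mice. Lgals3bp, a secreted glycoprotein, had medians of 8.62 and 57.4 RPKM in control adductor and gastrocnemius and of 12.1 and 71.6 in diabetic mice. Lgals3bp did not overlap and differed by 2.51 ± 0.32 (limma adjusted p = 5.6e-07) and 2.40 ± 0.32 (1.3e-06). Rtp4, a chaperone for receptors at the cell surface, differed by 2.43 ± 0.31 (limma adjusted p = 6.2e-07) and 2.04 ± 0.31 (7.2e-06), also without overlap. Sp100, a nuclear body protein, was called in control mice only, at 1.41 ± 0.45 (limma adjusted p = 0.0085) against 0.98 ± 0.45 (0.066) in diabetic mice.

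**Figure D3:**
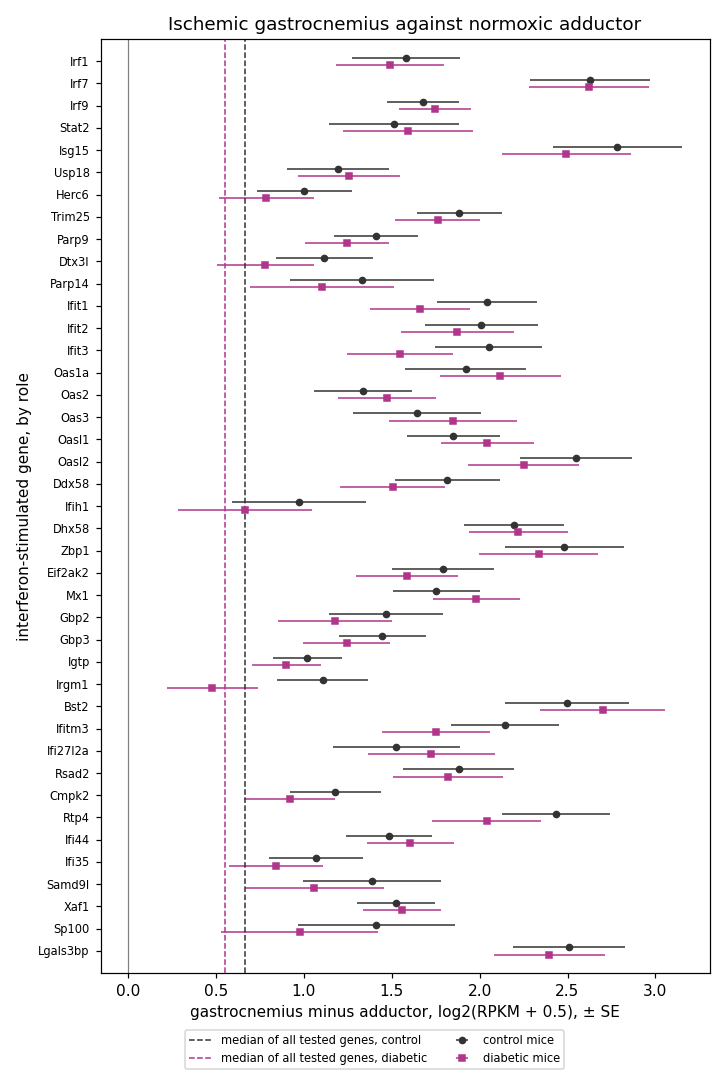
Gastrocnemius minus adductor difference of the 41 tested members in log2(RPKM + 0.5), with its standard error, in control mice (black circles) and diabetic mice (purple squares). Dashed lines mark the median of all tested genes, 0.66 and 0.55. Every member lies to the right of the control line in control mice, and in diabetic mice Irgm1 (0.48) lies to the left of its line.

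Within the sets, 41 of 41 members were called higher in the control gastrocnemius in each set (medians 1.62 in the first and 1.66 in the second, with 59.3% and 51.3% of all genes called higher). In diabetic mice 41 of 41 were called in the first set (median 1.83, 57.3% of all genes) and 27 of 41 in the second (median 1.11, 35.2% of all genes), where 2 libraries stood against 2. Irgm1 and Sp100 were below 0 in that second set. The 3 members not called over all diabetic libraries, Ifih1, Irgm1 and Sp100, were called in the first set, and also when diabetic gastrocnemius 5 was left out or the replicate number was used as a block (41 of 41). Terms for the library set, without a block, also gave 41 of 41 in diabetic mice (median 1.66, beside 0.64 over all genes). Without diabetic gastrocnemius 3, 34 of 41 members were called in diabetic mice. Leaving out the 4 members that share 20% or more of their words with another gene (Ifit3, Oas1a, Herc6 and Ifitm3) gave medians of 1.58 and 1.59.

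Diabetes moved no member past the test in either muscle. In the adductor 0 of 41 members were called, against 0.0323% of all genes, and in the gastrocnemius 0 of 41, against 0.00808%. At an unadjusted p under 0.05 the members numbered 0 in each muscle, against 2.74% of all genes in the adductor and 1.26% in the gastrocnemius. By limma voom on recovered reads the counts were also 0 and 0. The adductor differences, diabetic minus control, were above 0 for 38 of 41 members and 57.0% of all genes. The members' median was 0.21 beside 0.04 over all genes, with a range of -0.08 to 0.57. The gastrocnemius differences were above 0 for 29 of 41 members and 36.7% of all genes. Here the members' median was 0.10 beside -0.06, with a range of -0.22 to 0.45. The highest single values were Ifit3 in the adductor (0.57 ± 0.30) and Ifi44 in the gastrocnemius (0.45 ± 0.25), and the lowest was Samd9l in the gastrocnemius (-0.22). No member separated diabetic from control libraries without overlap in either muscle, against 0.218% of all genes in the adductor and 0.0646% in the gastrocnemius. The gastrocnemius median was -0.05 without diabetic gastrocnemius 3 and -0.001 without control gastrocnemius 3.

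The diabetes effect in gastrocnemius less that in adductor called 0 of 41 members and 0% of all genes (at an unadjusted p under 0.05, 0 members and 1.24% of all genes). Its median was -0.15 beside -0.11 over all genes, with 13 of 41 members and 32.5% of all genes above 0. Over single libraries left out it ran from -0.33 to -0.03.

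The sets differed in the sign of the gastrocnemius values. In the first set the diabetic minus control gastrocnemius median was 0.32 beside -0.05 over all genes, with 38 of 41 members and 39.0% of all genes above 0. In the second set it was -0.31 beside -0.16, with 4 of 41 members and 29.7% of all genes above 0. No member was called in either (0% and 0.218% of all genes were), and 12 members of the second set were lower at an unadjusted p under 0.05, as were 9.97% of all genes. The test of the difference between the sets called 0 of 41 members in the gastrocnemius and 0.0646% of all genes. Its median was -0.60 over members, with 1 member above 0, beside -0.11 over all genes, with 35.2% above 0. At an unadjusted p under 0.05, 6 members and 1.58% of all genes were lower. Without control gastrocnemius 3, the lowest library of the first set for all 42 members, the first-set median was -0.07 and the difference between the sets -0.25.

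Usp18 had the smallest p in the second-set gastrocnemius. Its control libraries 4 to 6 held 2.98, 3.26 and 3.18 RPKM and its diabetic libraries 5 and 6 held 1.08 and 1.58, so that both diabetic values lay below all 3 controls. The difference was -1.004 ± 0.17 (limma adjusted p = 0.059). Without diabetic gastrocnemius 6 it was -1.20, in a fit that leaves diabetic gastrocnemius 5 alone against 3 controls and assumes that it varies like the other groups. In the first set the control libraries held 4.03, 5.07 and 2.01 RPKM and the diabetic libraries 4.85, 3.78, 6.85 and 4.52, which overlap, with a difference of 0.44 ± 0.31. Ifit1 read -0.91 ± 0.20 in the second set (limma adjusted p = 0.17) and 0.53 ± 0.40 in the first, and Samd9l read -0.84 ± 0.19 (0.17) and -0.17 ± 0.37. Diabetic libraries were below all controls for 18 of 42 members in the second-set gastrocnemius, against 19.9% of all genes. In the first set 0 of 42 members had groups that did not overlap in the gastrocnemius, against 1.23% of all genes.

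In the adductor the second set held the larger differences. The medians were 0.06 in the first set (all genes -0.01) and 0.34 in the second (all genes 0.11). Above 0 were 28 of 41 members and 48.5% of all genes in the first set, and 34 of 41 and 65.7% in the second. No member was called in either (0.00808% and 0.113% of all genes were), and 15 of the second set were higher at an unadjusted p under 0.05, as were 4.73% of all genes. Irf7 read 1.04, 1.43 and 1.85 RPKM in control adductor 4 to 6 against 3.45 and 2.44 in diabetic adductor 5 and 6, so that the diabetic libraries stood above the controls. In the first set it read 3.01, 7.26 and 2.35 RPKM in control and 5.13, 3.24, 3.34 and 2.73 in diabetic libraries, which overlap. The Irf7 differences were 0.83 ± 0.25 in the second set (limma adjusted p = 0.71) and -0.09 ± 0.40 in the first. Diabetic libraries were above all controls for 20 of 42 members in the second-set adductor, against 21.9% of all genes. In the first set the groups did not overlap for 0 of 42 members in the adductor, against 8.97% of all genes in either direction. The difference between the sets called 0 of 41 members in the adductor and 0.0162% of all genes. Its median was 0.27 over members beside 0.11 over all genes, and 1 member and 2.79% of all genes were higher at an unadjusted p under 0.05. The first-set adductor median was 0.31 without control adductor 2, -0.03 without control adductor 1 and -0.15 without control adductor 3, and without control adductor 2 the difference between the sets was 0.05.

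The difference of the diabetes effects between the muscles had a median of 0.20 in the first set, with 34 of 41 members above 0, beside -0.06 over all genes, 41.8% of them above 0. In the second it was -0.73, with 3 of 41 above 0, beside -0.27 over all genes, 26.3% of them above 0. At an unadjusted p under 0.05, 21 members of the second set and 10% of all genes were lower. No member was called in either set, where 0% and 0.00808% of all genes were. Exact permutation tests of 16 members within each set and muscle (64 tests, two-sided) gave a smallest p of 0.114 and a smallest adjusted p of 0.853. The smallest p these designs allow is 0.0571 in the first set and 0.2 in the second. Within the second set Gapdh also differed between the groups, at 0.365 to 0.831 RPKM in the control and 3.71 to 13.7 RPKM in the diabetic libraries, and its part in the second-set differences was not tested.

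**Figure D4:**
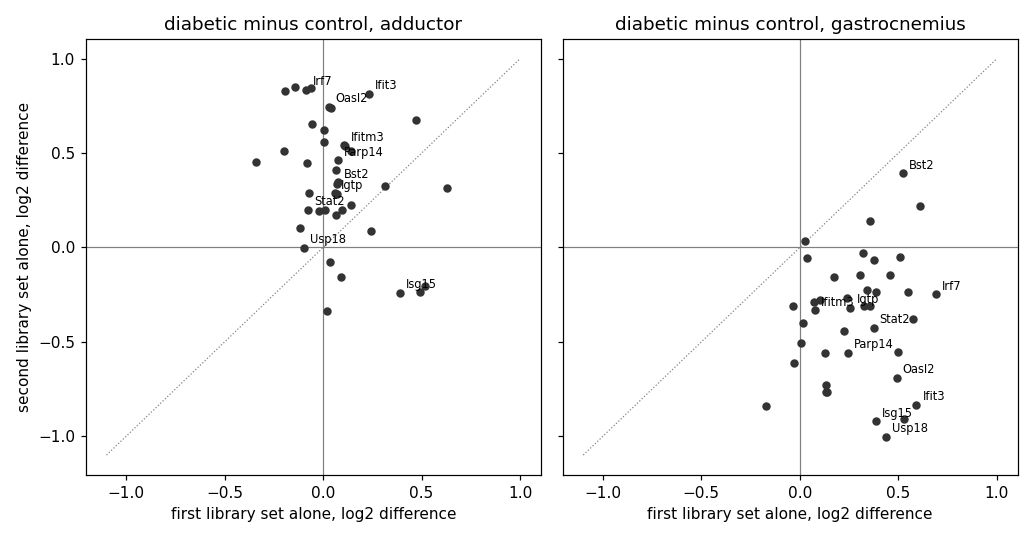
Diabetic minus control difference of the 41 tested members in log2(RPKM + 0.5), first set alone on the x axis and second set alone on the y axis, for adductor (left) and gastrocnemius (right). Points are genes, solid lines mark 0 and the dotted line marks equal values. Most adductor points lie above 0 on the y axis (34 of 41), while most gastrocnemius points lie to the right of 0 and below 0 (38 and 37 of 41).

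The members tended to share their extreme libraries. Control adductor 2 was the highest control adductor library for 39 of 42 members. Among control gastrocnemius libraries number 2 was highest for 25 members and number 3 lowest for 32. In the diabetic gastrocnemius number 3 was highest for 30 members and number 5 lowest for 22. The diabetic adductor had no such library, since number 1 was highest for 17 members and number 6 lowest for 18. The median RPKM over members ran from 0.849 to 2.69 (median 1.12) in control adductor, from 1.35 to 2.00 (1.70) in diabetic adductor, from 3.70 to 8.71 (4.73) in control gastrocnemius and from 3.18 to 10.4 (6.37) in diabetic gastrocnemius.

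Macrophage markers shared some of these extreme libraries and not others. The sum of 13 markers ran from 30.8 to 276 RPKM (median 49.4) in control adductor and from 435 to 1709 (766) in control gastrocnemius. In diabetic mice it ran from 56.0 to 113 RPKM (83.0) in adductor and from 396 to 1473 (827) in gastrocnemius. Its highest control adductor library was number 2 (276 RPKM), its lowest control gastrocnemius number 3 (435 RPKM) and its lowest diabetic gastrocnemius number 5 (396 RPKM), as for most members there. Elsewhere the extremes differed: the sum was highest in control gastrocnemius 1 (1709 RPKM, against 1569 in number 2) and in diabetic gastrocnemius 4 (1473 RPKM, against 1417 in number 3). It was lowest in diabetic adductor 1 (56.0 RPKM), the library that was highest for 17 members. A sum weighs the abundant markers most. By the markers' median log2 deviation from their means over all libraries, number 6 was lowest in diabetic adductor (-1.67, against -1.60 in number 1). Number 6 was also lowest by that measure in diabetic gastrocnemius (0.66, against 0.72 in number 5), while the other extremes named here stayed. Other marker sums shared these extremes in part. Control adductor 2 was also highest of its group for fibroblast, endothelial, plasmacytoid dendritic and T and NK cell markers. It was not highest for neutrophil, B cell, muscle fibre or erythroid markers. Control gastrocnemius 3 was also lowest of its group for neutrophil, plasmacytoid dendritic, T and NK and B cell markers. It was not lowest for endothelial, fibroblast, muscle fibre or erythroid markers. No macrophage marker was at 0 in any library. Between the muscles 11 of 13 markers were called higher in control and 12 of 13 in diabetic mice, with medians of 2.95 and 2.81. Beside this list and those that follow, 54.4% and 48.1% of all genes were called higher, with medians of 0.66 and 0.55. All 6 fibroblast markers were higher in both groups of mice (medians 1.63 and 1.34), as were 5 and 6 of 8 endothelial markers (0.86 and 0.82), and muscle fibre markers had medians of -0.92 and -0.79 with 4 and 2 of 8 called lower. Of 11 T and NK cell markers 3 could be tested and all 3 were higher, as were 2 of 2 tested markers of plasmacytoid dendritic cells and 1 of 5 of neutrophils. Within the sets the diabetic minus control macrophage medians were -0.40 and 0.44 in adductor and -0.08 and -0.30 in gastrocnemius. Their part in the members' differences was not tested.

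**Figure D5:**
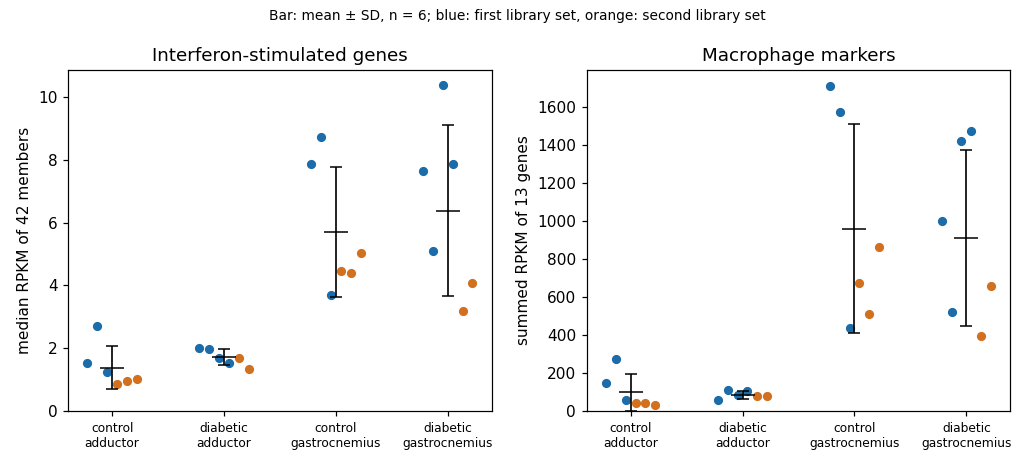
Median RPKM of the 42 members (left) and summed RPKM of 13 macrophage markers (right) in each library, by group, on linear axes from 0. Points are libraries (first set blue, second set orange) and bars are the mean ± SD of 6 libraries. Both panels put the gastrocnemius libraries above the adductor libraries, and control adductor 2 (2.69 and 276) above the other control adductor libraries.

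The level of members also differed between the sets with transcript length. Averaged over the 4 groups, the second set was lower than the first for 33 of 35 members longer than 1500 bases (median -0.49), and higher for 4 of 6 shorter members (median 0.37). Over all genes the second set was higher for 34.5% of the longer genes (median -0.20) and 73.5% of the shorter ones (0.46). Sp100 (-1.27) and Parp14 (-1.19) were lowest in the second set against the first, and Ifi27l2a (0.56), Ifitm3 (0.47) and Rtp4 (0.47) highest. Across genes, which are not independent replicates, the correlation of this set difference with log2 length was r = -0.69 over the 41 members and -0.23 over 12382 genes, all from the same libraries.

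Transcripts of the interferons themselves were at the edge of detection. Of 13 interferon genes listed, 9 were at 0 in all 24 libraries, and none passed the filter. Ifnb1, encoding interferon beta, had 2 reads in 2 libraries, both diabetic gastrocnemius. Ifng, encoding interferon gamma, had 0 and 2 reads in control and diabetic adductor and 13 and 10 in control and diabetic gastrocnemius, with a highest library of 0.349 RPKM. A count of 0 over the 6 control adductor libraries allows up to 0.0337 RPKM of Ifng (3 reads over the group, counting error only).

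The receptors of both interferon types were readily measured, and their genes did not all differ between the muscles. Ifnar1 had medians of 1.61 RPKM in control adductor and 5.87 in control gastrocnemius, and differed by 1.84 ± 0.38 (limma adjusted p = 0.00020) in control and 1.53 ± 0.38 (0.0014) in diabetic mice. Ifnar2 had medians of 4.37 and 23.3 RPKM and differed by 2.26 ± 0.25 (limma adjusted p = 9.4e-08) and 2.31 ± 0.25 (9.2e-08). Ifngr1 differed by 1.38 ± 0.21 (limma adjusted p = 7.1e-06) and 1.56 ± 0.21 (1.9e-06). Ifngr2, the other chain of that receptor, read 30.8 and 30.9 RPKM (medians) in control adductor and gastrocnemius, with differences of -0.07 ± 0.17 (limma adjusted p = 0.76) and -0.15 ± 0.17 (0.47). Of 10 receptor and JAK-STAT genes 7 were called higher in control and 6 in diabetic mice, beside 54.4% and 48.1% of all genes. Jak1 and Jak2 were called higher in neither.

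Of 14 genes that sense nucleic acid upstream of interferon or relay that signal, 13 were called higher in each group of mice (medians 1.53 and 1.43). They included Tlr7, the endosomal receptor for single-stranded RNA (2.33 and 2.35), and Tmem173, which encodes STING (2.36 and 2.00). Beside this list and those that follow, 54.4% and 48.1% of all genes were called higher (medians 0.66 and 0.55). Mavs, the mitochondrial adaptor of Ddx58 and Ifih1, was called lower in diabetic mice (-0.54 ± 0.19, limma adjusted p = 0.017) and read -0.38 ± 0.19 in control mice (0.083). Among 7 feedback inhibitors 5 were higher in each group of mice. Socs1, which blocks the receptor kinases, differed by 2.12 ± 0.29 (limma adjusted p = 1.4e-06) and 1.88 ± 0.29 (8.1e-06). Cish was called lower in control mice (-1.94 ± 0.63, limma adjusted p = 0.010). Of 38 further interferon-induced genes that could be tested, 32 were called higher in control and 29 in diabetic mice (medians 1.67 and 1.53). They included the chemokine Cxcl10 (2.90 ± 0.55, limma adjusted p = 9.0e-05, and 2.20 ± 0.55, 0.0017). None of these pathway genes was called for diabetes in either muscle. The further interferon-induced genes had diabetic minus control medians of -0.03 and 0.29 in the first and second set in adductor, and of 0.17 and -0.34 in gastrocnemius.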

How the data were processed

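Poly(A) RNA-seq of 24 muscle libraries was used as 1 deposited table of RPKM. Per the file headers, the authors computed RPKM with HOMER on the exons of RefSeq transcripts (mouse build mm9), with no strand option shown. The submitters' processing notes name TopHat, HOMER and mm9, without versions. The table held 33022 transcripts under 24016 symbols, and 99.97% of the values above 0 came out as whole reads within 0.01. A floor of 3 reads for a 1 kb transcript was 0.192 RPKM at the greatest depth and 0.421 at the least, for counting error only.

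The transcript of highest mean was kept per symbol, and genes with at least 1 RPKM in at least 6 libraries (12382) entered limma 3.58.1 (R 4.3.3) as log2(RPKM + 0.5), with 4 group means and an intensity trend. P-values were adjusted by Benjamini-Hochberg over all genes of a contrast and called at 0.05. The sets of libraries were told apart by Gapdh above or below 100 RPKM, after the data were seen, and the fits were repeated within each. Same-numbered adductor and gastrocnemius libraries of a mouse group shared deviations from the group means (r across genes of 0.25 to 0.74 over 12 pairs), but from group and set means r ran from -0.09 to 0.63. Same-numbered libraries of a mouse group also share the library set, and libraries of unlike number were not compared. Diabetic numbers 5 and 6 give the same r of 0.13, since 2 libraries deviate from their mean by equal and opposite amounts. Neither the labels nor these deviations establish the pairing, which is an assumption. The replicate number was also fitted as a block, within each mouse group for the muscle contrasts. For the diabetes contrasts within a muscle the number was shared by control and diabetic mice. Those are different animals, and number 4 joined second-set control with first-set diabetic libraries, so that block is not a pairing. In the 60 within-group pairs of libraries the chi-square of recovered reads, divided by its degrees of freedom, was 10.4 to 318, so none was taken as a library deposited again.

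The alternatives were other pseudocounts, filters, scalings and transcripts, limma voom on the recovered reads, the block, set terms and each library left out. Leaving libraries out within a set, and leaving out members that share words with another gene, were added after seeing the data. The fit was tested on simulated data. The members, the other gene lists and the rule for naming genes (16 members always in full, with those of smallest p, and the rest by counts) were chosen with earlier results of these data known. RefSeq promoters were of build GRCm38.p6, and no coordinates were converted between builds.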

Additional observations from a re-analysis of the deposited data

Results flagged for a closer look

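Of 68 groups of 6 values checked (17 measures in 4 groups), 10 held a library whose gap to its nearest neighbour was large for the group's range by Dixon's criterion, which chance gives for about 1 in 20 groups. Control adductor 2 accounted for 6 of them, always as the highest library. It held 7.26 RPKM of Irf7, 3.12 of Oasl2, 22.4 of Lgals3bp, 6.24 of Gbp2 and 1.88 of Zbp1, and its median log2 deviation from the genes' means over all libraries was -0.19. Control gastrocnemius 2 was high for Gbp2 at 19.7 RPKM, and control gastrocnemius 3 was low for Ifitm3 at 87.0 RPKM. Diabetic adductor 1 was high for Isg15 at 8.36 RPKM, and diabetic adductor 5 for Ifi27l2a at 58.3 RPKM. The genes are measured in the same libraries, so these results are not independent.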

How the results depend on the processing

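The muscle medians were above 0 under every alternative. In control mice the median was 1.04 after median-of-ratios scaling, 0.84 after quantile normalization and 2.08 by limma voom on recovered reads. In diabetic mice it was 1.03, 0.87 and, in the second set alone, 1.11. Herc6 turned to -0.078 in diabetic mice after quantile normalization. Over both groups of mice 17 muscle calls of members were lost after median-of-ratios scaling and, besides Herc6, 21 after quantile normalization. With libraries left out in turn, called members numbered 40 to 41 in control and 34 to 41 in diabetic mice, with medians of 1.48 to 1.79 and 1.45 to 1.74. The diabetes contrasts called 0 members throughout, except 0 to 1 in the second-set gastrocnemius, where Usp18 passed without diabetic gastrocnemius 6 (the cause was not tested), with 1 diabetic library left and its spread assumed to be like that of the other groups. Over libraries left out their medians ran from 0.18 to 0.36 in adductor and from -0.05 to 0.23 in gastrocnemius, within the first set from -0.15 to 0.31 and -0.07 to 0.55, and within the second from 0.27 to 0.54 and -0.49 to -0.22. By limma voom the adductor median was 0.38. The difference of the diabetes effects ran from -0.33 to -0.03 and was -0.73 in the second set alone. The set differences ran from 0.05 to 0.52 in adductor and from -0.79 to -0.25 in gastrocnemius. With the replicate block, which assumes pairing of the muscles, 41 members were called in each group of mice. The block changed no call but those of Ifih1, Irgm1 and Sp100, and terms for the library set alone also called 41 in each group. For diabetes the block called 0 members, with the number shared by control and diabetic mice, which are not pairs. The second set compares 2 diabetic with 3 control libraries, and its depth of 7.13 to 11.8 M reads limits genes such as Mx2.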
